A study of Homo sapiens with 6 samples.

Results

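The pentose phosphate pathway enzymes described here are PGLS, PGD, RPIA, RPE, TKT and TALDO1. They were chosen by name, and each of the 6 symbols had 1 row in a table of 17104 genes. The cells are HBMEC, labelled as a brain microvascular endothelial cell line, and total RNA was sequenced from 3 control libraries (titles with CON) and 3 libraries of cells put through OGD/R, deprivation of oxygen and glucose followed by reperfusion (titles with OGD). In this cell model of stroke, oxygen and glucose are withdrawn and then given back. No other agent, genotype or time is given in the sources used here, and the labels do not state whether each library is its own culture. The p-values then cover only the scatter among these libraries, which may be technical.

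The pathway branches off glycolysis at glucose 6-phosphate. Its oxidative arm makes NADPH, the reducing agent for lipid synthesis and for the glutathione and thioredoxin systems, and ends in ribulose 5-phosphate. Its non-oxidative arm interconverts sugar phosphates in reversible steps, supplies ribose 5-phosphate for nucleotides, and returns carbon to glycolysis as fructose 6-phosphate and glyceraldehyde 3-phosphate. In endothelial cells of the brain the pathway is known as a source of NADPH for defence against oxidants. PGLS and PGD act in the oxidative arm after its first step, and the enzyme of that first step is not analysed here. RPIA and RPE convert ribulose 5-phosphate into its isomer and its epimer, and TKT and TALDO1 transfer carbon units between sugars.

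TALDO1 and TKT transcripts were higher after OGD/R, TALDO1 by 16.7% (95% interval 9.88% to 24.0%) and TKT by 8.13% (2.25% to 14.4%). After correction for transcript length and GC content the log2 fold change of TALDO1 was 0.12 in place of 0.22. TALDO1 was called in 17 of 17 alternative analyses and TKT in 12 of 17. The alternative without a filter on low counts repeats the main fit, because the filter removed no gene. The other 4 members did not pass the test, and the 2 of 6 called compare with 19.7% of all genes. The promoters of TALDO1 and TKT are shown because these were the only members called, both in the same direction. The sequences are the 250 bases before the RefSeq start site on GRCh38.p14, given 5′ to 3′ on the gene's strand, at chr11:747214-747463 (plus strand) for TALDO1 and chr3:53256023-53256272 (minus strand) for TKT. Capitals mark the GC box GGGCGG and the CCAAT box, on either strand.
TALDO1: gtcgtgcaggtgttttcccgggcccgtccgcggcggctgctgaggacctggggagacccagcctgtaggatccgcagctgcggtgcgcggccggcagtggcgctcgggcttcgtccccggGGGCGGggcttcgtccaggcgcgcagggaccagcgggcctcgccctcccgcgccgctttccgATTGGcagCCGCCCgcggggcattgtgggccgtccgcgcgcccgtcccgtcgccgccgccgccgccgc
TKT: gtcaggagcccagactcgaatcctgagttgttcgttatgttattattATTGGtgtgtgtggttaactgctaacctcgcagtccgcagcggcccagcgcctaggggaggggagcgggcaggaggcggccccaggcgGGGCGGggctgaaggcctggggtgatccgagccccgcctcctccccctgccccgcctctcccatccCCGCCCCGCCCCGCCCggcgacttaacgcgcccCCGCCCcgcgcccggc

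In all, 4 motifs were searched on both strands in windows that run from 250 bases before to 50 bases after the start, which RefSeq gives for all 6 members. The GC box occurred in 6 of 6 members and in 45.0% of 35116 RefSeq promoter windows. TKT held 5 copies, 3 of which overlap as CCGCCCCGCCCCGCCC on the opposite strand, and TALDO1 held 2. CCAAT occurred in 5 members, PGLS being the exception, and in 34.6% of all windows. The core of the antioxidant response element bound by NRF2, TGACNNNGC, was found in PGD and RPE, and in 13.3% of all windows. The E-box CACGTG was in 0 members and in 7.26% of windows. The GC content of the members' windows was 63.0% to 75.0%, against a median of 58.7% over all windows. The background windows were neither matched to the members in GC content nor limited to genes measured here. The shares of members and of all windows are therefore not a like comparison. These matches describe letters and not binding.

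The libraries held 31048662 to 34484647 counts each. Of 14 endothelial marker genes only 5 had a row, and PECAM1, VWF, KDR and CLDN5 were not among them. The epithelial keratins KRT8 and KRT18 were at 1235 and 848 CPM in control. The epithelial markers with a row (8 of 12) summed to 2485 to 2711 CPM in control and 3048 to 3104 CPM after OGD/R. Of these 8 genes 4 rose and 0 fell, against 10.2% and 9.48% of all genes. The counts were 3 higher and 2 lower with total-count scaling, and 4 and 1 with the replicate block or the length and GC correction. KRT8, KRT18 and KRT7 make up most of the epithelial sum, while CLDN4 (−0.25), ESRP1 (−0.18) and CDH1 (−0.28), on the log2 scale, did not pass. The endothelial sums were 276 to 293 and 282 to 293 CPM, with CDH5 higher and ROBO4 lower. In control ESAM, ENG and EGFL7 were at 138, 78.4 and 52.7 CPM, while the epithelial EPCAM and CDH1 were at 52.3 and 1.19 CPM. The epithelial markers KRT19, GRHL2, CLDN7 and ST14 had no row. The high keratins and the endothelial genes without a row go against the endothelial label, while ESAM, ENG and EGFL7 go with it. The cells are called HBMEC as labelled. Mural and fibroblast markers had 4 of 10 rows (sums of 17.8 to 24.8 CPM over all libraries), glial and neuronal markers 3 of 10 (90.3 to 102 CPM, nearly all MBP), and immune markers 2 of 8 (3.81 to 6.001 CPM). The part of the higher keratin-led sum in the changes below was not tested, and fewer cells of a type and less RNA per cell cannot be told apart.

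Levels are CPM values, counts relative to library size, scaled by the TMM method, and differences are log2 fold changes of OGD/R over control from edgeR's quasi-likelihood test over all genes, called at an adjusted p under 0.05. Of 17104 genes, 19.7% were called, 10.2% higher (1749) and 9.48% lower (1621). With total-count scaling the split was 1383 higher and 2098 lower. Among the members 2 of 6 were called, both higher. The 3 OGD/R libraries lay wholly to one side of the 3 control libraries in 3 of 6 members (TALDO1, TKT and RPIA, each higher after OGD/R), while 33% of all genes had such groups, 16.4% with OGD/R higher. With 6 genes, these shares are not set apart from the background. The median log2 fold change of the members was 0.09, against 0.00 over all genes. After the length and GC correction these medians were 0.06 and −0.01. The comparison with all genes is not matched for transcript length, with which fold changes varied, as described below.

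Transaldolase, encoded by TALDO1 (ENSG00000177156), moves a dihydroxyacetone unit from sedoheptulose 7-phosphate to glyceraldehyde 3-phosphate. Its transcript stood at 164, 181 and 171 CPM in control replicates 1, 2 and 3 and at 200.01, 199.6 and 203 CPM in OGD/R replicates 1, 2 and 3. The groups did not overlap, and the OGD/R libraries were close together. The mean went from 172 ± 8.30 to 201 ± 1.95 CPM (SD, n = 3 each), a log2 fold change of 0.22 ± 0.04 (SE, edgeR adjusted p = 0.000108), and 3 of 3 OGD/R libraries were above every control library. The call held in 17 of 17 alternatives, with a value of 0.12 (adjusted p = 0.00739) after correction for transcript length and GC content. The smallest value, also 0.12 when rounded (adjusted p = 0.00660), came with the replicate block added to this correction.

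Transketolase, encoded by TKT (ENSG00000163931), moves ketol units between sugar phosphates and needs thiamine pyrophosphate as cofactor. It was at 703, 738 and 739.5 CPM in control replicates 1 to 3 and at 807, 797 and 754 CPM in OGD/R replicates 1 to 3. The groups did not overlap, but OGD/R replicate 3 was only just above control replicate 3. The mean went from 727 ± 21.1 to 786 ± 28.2 CPM (SD, n = 3 each), a log2 fold change of 0.11 ± 0.04 (SE, edgeR adjusted p = 0.0390). The call was close to the threshold. It was lost with total-count scaling (0.08, adjusted p = 0.137), without control replicate 1 (0.09, 0.152), without control replicate 3 (0.13, 0.0674), without OGD/R replicate 1 (0.09, 0.169) and without OGD/R replicate 2 (0.10, 0.174). After the length and GC correction the value was 0.12 (adjusted p = 0.00286).

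**Figure D1:**
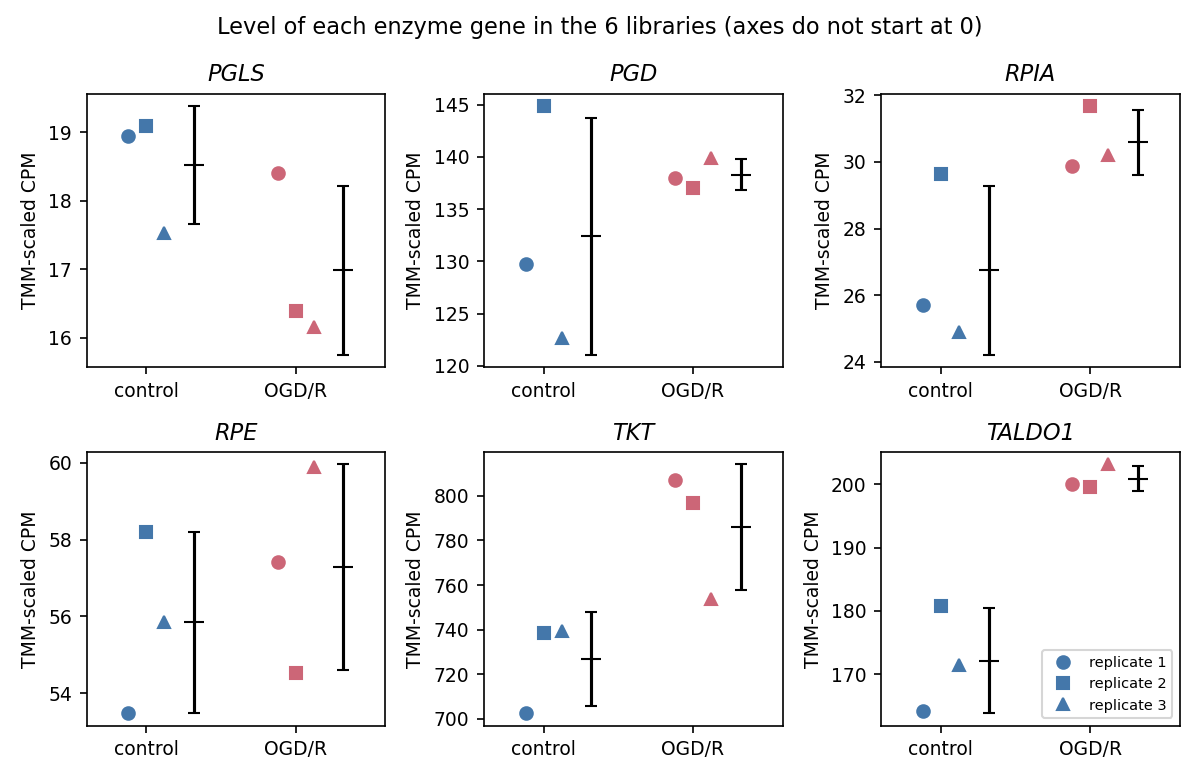
TMM-scaled CPM of each enzyme gene in the 6 libraries, 1 panel per gene, with axes that do not start at 0. Points are libraries (blue control, red OGD/R, marker shape for the replicate) and the black bar is the mean ± SD of 3 libraries. The groups do not overlap in RPIA, TKT and TALDO1, and control replicate 2 is the highest control library in each gene except TKT.

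RPIA (ENSG00000153574), ribose 5-phosphate isomerase, makes the sugar phosphate from which nucleotides are built. Its transcript was at 25.7, 29.6 and 24.9 CPM in control replicates 1 to 3 and at 29.9, 31.7 and 30.2 CPM in OGD/R replicates 1 to 3. The groups did not overlap, although control replicate 2 nearly reached OGD/R replicate 1. The log2 fold change was 0.19 ± 0.08 (SE, n = 3 each, edgeR adjusted p = 0.0771), which did not pass, with a 95% interval of 0.04 to 0.35 before adjustment. Without control replicate 2 it was 0.28 (adjusted p = 0.0143), and after the length and GC correction 0.11 (adjusted p = 0.319).

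RPE (ENSG00000197713), ribulose phosphate epimerase, makes xylulose 5-phosphate, the donor sugar for transketolase. Its transcript was at 53.5, 58.2 and 55.9 CPM in control and at 57.4, 54.5 and 59.9 CPM after OGD/R. The libraries of both groups were interleaved. The log2 fold change was 0.04 ± 0.06 (SE, n = 3 each, edgeR adjusted p = 0.739), with a 95% interval of −0.08 to 0.16. The length and GC correction turned its sign (−0.04). KANSL1L covers 23.8% of the RPE exon bases in GENCODE 29 on the opposite strand. In the same annotation 6 pseudogenes are named after RPE, 1 after PGD and 1 after RPIA, and 0 of them have a row. It is not stated whether reads were counted by strand, so reads of RPE can be shared with KANSL1L. Sharing of reads with the pseudogenes was not tested for any of these members.

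PGD (ENSG00000142657), phosphogluconate dehydrogenase, releases carbon dioxide and yields NADPH. It was at 129.7, 145 and 123 CPM in control replicates 1 to 3 and at 138, 137 and 139.9 CPM in OGD/R replicates 1 to 3. The OGD/R libraries were close together and lay inside the control range. The coefficient of variation was 8.58% in control and 1.08% after OGD/R, each over 3 libraries. The log2 fold change was 0.06 ± 0.05 (SE, edgeR adjusted p = 0.421), with a 95% interval of −0.04 to 0.16. PGD passed without control replicate 2 (0.14, adjusted p = 0.0411). With the length and GC correction its value was 0.00 (adjusted p = 0.964).

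PGLS (ENSG00000130313), phosphogluconolactonase, opens the lactone made in the first step of the oxidative arm. Its transcript was at 19.0, 19.1 and 17.5 CPM in control and at 18.4, 16.4 and 16.2 CPM after OGD/R. OGD/R replicate 1 lay within the control range, and the other OGD/R libraries lay below it. It was the only member with a negative log2 fold change, −0.12 ± 0.09 (SE, n = 3 each, edgeR adjusted p = 0.407), with a 95% interval of −0.31 to 0.07. With the length and GC correction it was −0.21 (adjusted p = 0.116). A gene on the opposite strand covers 9.17% of the PGLS exon bases.

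**Figure D2:**
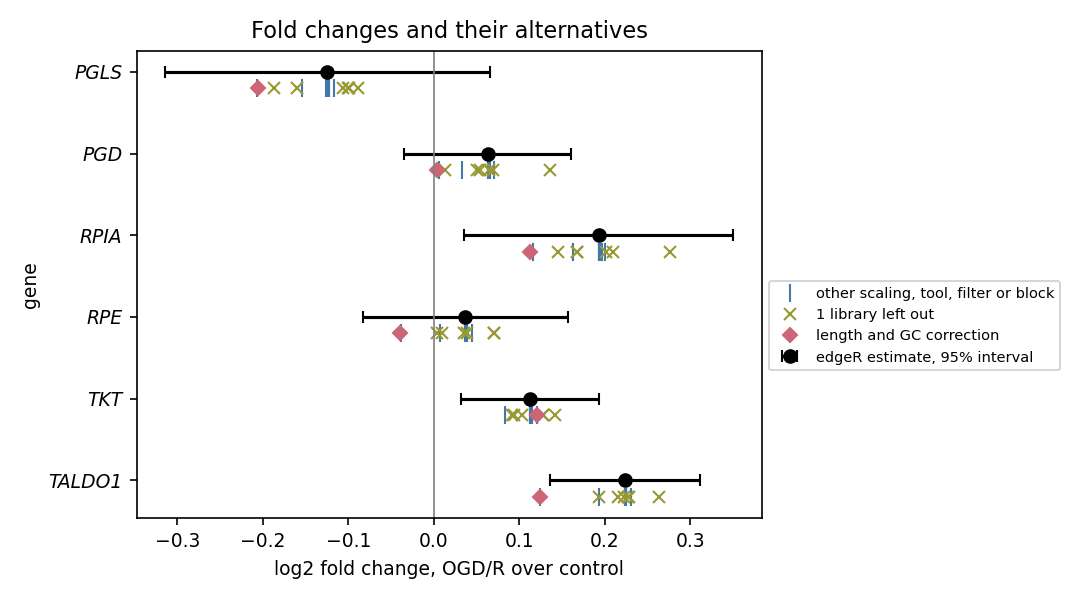
Log2 fold change of OGD/R over control for each enzyme gene (x axis). Black points are the edgeR estimates with 95% intervals, and the marks under each are the 17 alternatives, by kind. TALDO1 and TKT stay above 0 in each alternative, and RPE lies on both sides of 0. The length and GC correction lowers TALDO1 from 0.22 to 0.12 and moves TKT from 0.11 to 0.12.

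Fold changes in this series fell with transcript length, and the members differ in length. The longest coding transcript was 1346 nucleotides for TALDO1 and 1028 for PGLS, in the shortest of 10 equal groups of coding genes, whose median log2 fold change was 0.14. PGD (1885) and RPIA (1848) were in the next group, with a median of 0.07. RPE (3165) and TKT (3010) were in the fifth, with a median of 0.02. The differences of TALDO1, TKT and RPIA lay above the median of their group, that of PGLS lay below it, and those of PGD and RPE lay near it.

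**Figure D3:**
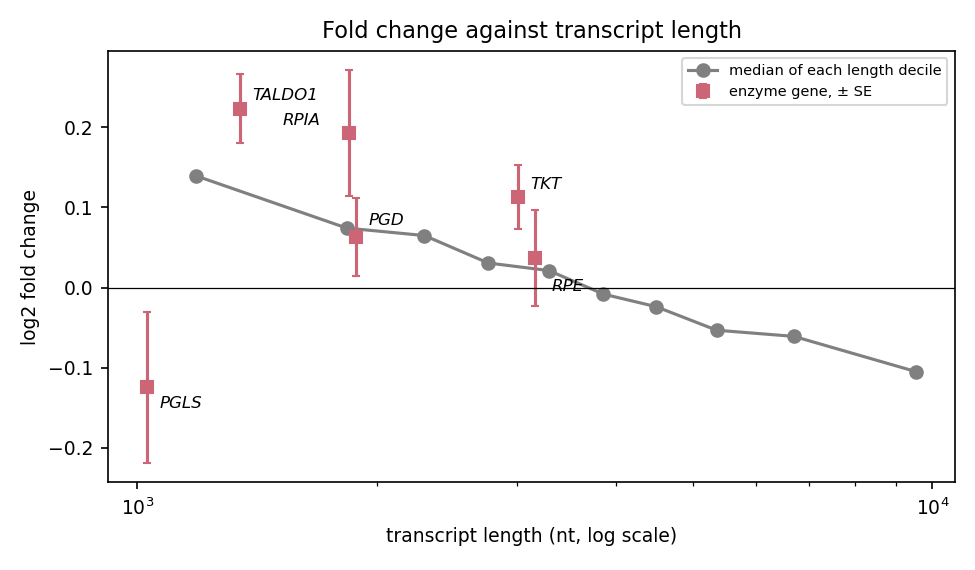
Log2 fold change (y axis) against transcript length in nucleotides (x axis, log scale). Grey points are medians of 10 groups of coding genes of equal number, and red squares are the 6 enzyme genes with their SE. TALDO1 at 0.22 and PGLS at −0.12 lie on opposite sides of the median of the shortest group, 0.14.

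Per kilobase of the longest coding transcript, the control level was 241 ± 6.995 CPM for TKT, 128 ± 6.16 for TALDO1, 70.2 ± 6.02 for PGD, 18.0 ± 0.836 for PGLS, 17.6 ± 0.744 for RPE and 14.5 ± 1.37 for RPIA (mean ± SD, n = 3). TKT, TALDO1 and PGD followed in this order in 6 of 6 libraries without overlap, and PGD was 4.02 ± 0.194 times RPE (mean ± SD over 6 libraries). In control RPIA, at 13.5 to 16.03 CPM per kilobase, lay below RPE (16.9 to 18.4) and PGLS (17.1 to 18.6), which overlapped each other. After OGD/R PGLS, at 15.7 to 17.9, overlapped both RPIA (16.2 to 17.1) and RPE (17.2 to 18.9). Per kilobase of all merged exons the first 3 kept their order, at 76.5, 57.3 and 44.6 CPM in control, while PGLS was at 6.51, below RPIA at 14.5. The lower ranks therefore depend on the length used.

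Together the members took 0.111% to 0.117% of the counts in control libraries and 0.119% to 0.124% after OGD/R. Their summed level was 1132 ± 38.2 CPM in control and 1230.0 ± 24.3 CPM after OGD/R (SD, n = 3 each), and the groups did not overlap. TKT made up 62.7% to 65.3% of the members' counts in any library, so the sum mostly follows TKT. Ratios between 4 pairs of members were chosen with these values known. The count ratio of TKT to TALDO1 was 4.23 ± 0.123 in control and 3.91 ± 0.176 after OGD/R (SD, n = 3 each), and that of TALDO1 to PGD was 1.30 ± 0.0821 and 1.45 ± 0.00366. Neither overlapped between groups (two-sided exact permutation p = 0.1 each, the smallest that 3 against 3 allows, 0.2 after adjustment over 4 ratios). The ratios of TKT to PGD (5.51 and 5.68) and of RPIA to RPE (0.479 and 0.535) overlapped between groups (exact permutation p = 0.7 and 0.2, adjusted 0.7 and 0.267).

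The genes whose profile over the 6 libraries was most like that of TALDO1 were OTUB1, MXRA7 and SEPHS1, out of 11184 genes averaging 5 CPM or more. Likeness was the root-mean-square distance between log2 CPM profiles centred over all 6 libraries, which was 0.0118, 0.0124 and 0.0131. Such profiles keep the difference between the groups, so the nearest genes have a rise like that of TALDO1 (0.21, 0.22 and 0.23). Their likeness is therefore no separate evidence of a link. The distances of the members were not ranked among all genes. Among the members the closest to TALDO1 was RPIA, at 0.0610, and the farthest was PGLS, at 0.193.

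Other genes around the pathway moved both ways. Of 13 further genes listed around it, not all of which feed or branch from it, 10 had a row. Of these, 2 rose and 2 fell, with a median log2 fold change of 0.10. Over all genes 10.2% rose and 9.48% fell. H6PD, which carries out the first oxidative steps of a separate pathway inside the endoplasmic reticulum, was at 22.7, 22.9 and 25.0 CPM in control and 19.3, 17.3 and 16.3 CPM after OGD/R. Its groups did not overlap, and it fell (−0.41 ± 0.09 SE, edgeR adjusted p = 0.000482), with −0.26 as the value closest to 0 over 17 alternatives, all of which kept the call. XYLB, the xylulose kinase that supplies xylulose 5-phosphate, fell from 15.9 ± 1.97 to 10.8 ± 0.958 CPM (−0.56 ± 0.11, adjusted p = 0.000136). DERA, the deoxyribose phosphate aldolase, rose from 33.1 ± 0.965 to 42.5 ± 1.83 CPM (0.36 ± 0.07, adjusted p = 7.95e-05). DCXR, a xylulose reductase, rose from 49.4 ± 3.59 to 57.9 ± 2.34 CPM (0.23 ± 0.06, adjusted p = 0.00557), but not after the length and GC correction (0.10, adjusted p = 0.221) or without OGD/R replicate 2 (0.20, 0.0528).

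The remaining 6 did not pass. The carbohydrate kinase FGGY had a value of −0.51 (adjusted p = 0.0654), and it passed with total-count scaling (−0.54, 0.0485) and after the length and GC correction (−0.57, 0.0368). TIGAR, a bisphosphatase that favours entry of sugar into the pathway, was at 0.20 (adjusted p = 0.216). Other genes cover 45.6% of its exon bases. The phosphopentomutase PGM2 was at 0.14, the ribokinase RBKS at 0.20, the sedoheptulose kinase SHPK at 0.06 and the glycerate kinase GLYCTK at −0.02, with adjusted p from 0.232 to 0.953. For SHPK, 74.4% of the exon bases overlap other genes. TKTL1, TKTL2 and RPEL1, relatives of TKT and RPE, are without a row and not analysed here.

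The step that commits ribose 5-phosphate to nucleotides is made by the phosphoribosyl pyrophosphate synthetases. Of their 4 measured genes edgeR called 0, with 1 (PRPSAP2) at an unadjusted p under 0.05, and DESeq2 and limma-voom called 0. Over all genes edgeR called 19.7%. The catalytic PRPS1 and PRPS2 were at 0.04 ± 0.06 and −0.04 ± 0.07 (SE), and the associated proteins PRPSAP1 and PRPSAP2 at −0.02 ± 0.05 and 0.14 ± 0.07.

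A list drawn up around other NADPH sources moved both ways. This list also holds genes that are not, or not mainly, NADPH sources, such as the NAD kinases NADK and NADK2, the folate ligase MTHFD1L, MTHFD2 and ME2. Of its 13 measured genes 2 rose and 2 fell, against 10.2% and 9.48% of all genes, with a median of −0.03. The counts were 2 and 3 with total-count scaling or the replicate block, and 4 and 2 after the length and GC correction. IDH1, the cytosolic isocitrate dehydrogenase, rose from 105 to 133 CPM (0.35 ± 0.05 SE, adjusted p = 1.51e-07), and ME1, the cytosolic malic enzyme, from 53.6 to 61.6 CPM (0.20 ± 0.06, adjusted p = 0.00846). ME1 did not pass without OGD/R replicate 2 (0.18, adjusted p = 0.0615). The mitochondrial folate enzymes MTHFD2 (−0.46 ± 0.05) and ALDH1L2 (−0.85 ± 0.11) fell, the first from 142 to 103 CPM and the second from 16.1 to 8.96 CPM. Of the MTHFD2 exon bases, 33.2% overlap other genes.

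Glycolytic enzymes that share intermediates with the pathway had 4 of 10 measured genes higher and 1 lower, with a median of 0.15. Over all genes 10.2% were higher and 9.48% lower. TPI1, which interconverts the triose phosphates, was at 0.48 ± 0.04 (SE) and GPI, which acts on glucose 6-phosphate and fructose 6-phosphate, at 0.21 ± 0.04. Both rose in 17 of 17 alternatives. GAPDH was at 0.19 and ALDOA at 0.48, and both rose. The ALDOA row was low, at 5.87 CPM in control and 8.21 CPM after OGD/R, against 3317 and 3783 CPM for GAPDH. Other genes overlap 53.5% of the ALDOA exon bases, and its call ended without OGD/R replicate 2 (0.40, adjusted p = 0.0948). HK2, a hexokinase that makes glucose 6-phosphate, fell (−0.29, adjusted p = 0.0117). Its call was lost after the length and GC correction (−0.21, adjusted p = 0.0773; with the replicate block as well, 0.0688), without control replicate 1 (−0.22, 0.121) and without OGD/R replicate 3 (−0.25, 0.0836).

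**Figure D4:**
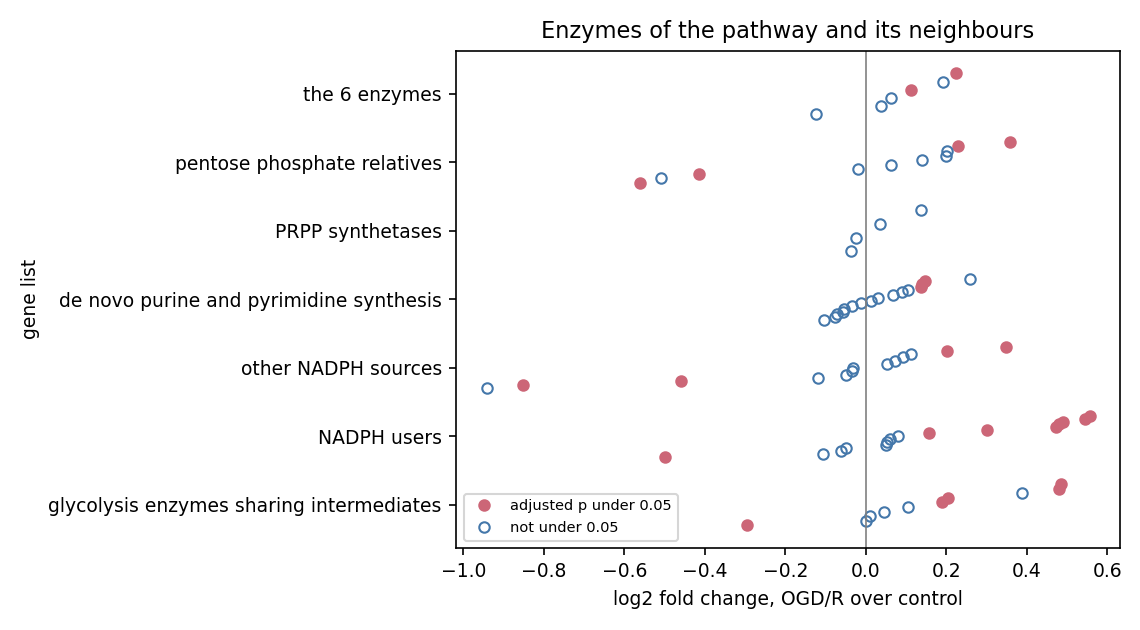
Log2 fold change of OGD/R over control (x axis) for the measured genes of 7 lists (y axis), 1 point per gene. Filled red points have an adjusted p under 0.05. The 6 enzymes lie between −0.12 and 0.22.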

How the data were processed

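RNA was sequenced from 3 control and 3 OGD/R libraries. The authors deposited raw read counts by Ensembl gene. Trimmomatic and HISAT2, SAMtools and featureCounts, and edgeR are named, without versions, per the submitters' processing notes. The build named there, GRCm38, is a mouse build, while the IDs are human, so the build behind the counts is uncertain. All 17104 genes reached 10 counts in 3 or more libraries, so an unstated filter had been applied. Symbols matched for 17093 genes.

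Counts were scaled by TMM and tested with edgeR 4.0.16 (R 4.3.3, robust quasi-likelihood, two-sided, no block), with Benjamini-Hochberg adjustment over all genes and a threshold of 0.05. filterByExpr (minimum count 10) removed 0 genes. SE values come from the fold change and the F statistic. Alternatives were scaling by total count, upper quartile or RLE, limma-voom (limma 3.58.1), DESeq2 1.42.0, other filters, a replicate block, a correction by smooth trends on transcript length and GC (mgcv 1.9.3, GENCODE 29, fitted on 10848 coding genes), and leaving out each library. The test was also run on simulated data, and the outcome is not given here.

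The members and lists were chosen with earlier results of these data known. All members are named; of the relatives and synthetases every measured gene is named, and of other lists up to 4 called genes with the smallest p. Some genes that this rule picked are not reported here. HK2 was named after its value was seen.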

Additional observations from a re-analysis of the deposited data

How the results depend on the processing

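Over 17 alternatives TALDO1 kept its direction and call (log2 fold change 0.12 to 0.26), PGLS stayed uncalled (−0.21 to −0.09), and TKT stayed positive and was called in 12. With total-count scaling 1 member was called higher in place of 2, since TKT was at 0.083. Leaving out single libraries gave 1 to 4 members called higher, 0.091 to 0.142 for TKT, 0.013 to 0.136 for PGD and 0.146 to 0.276 for RPIA, and 1079 to 1527 genes called lower in place of 1621. The length and GC correction turned RPE to −0.0392 and PRPS1 to −0.0346, also with the replicate block (−0.0386 and −0.0331). Leaving out single libraries gave −0.0035 to 0.339 for RBKS, −0.014 to 0.104 for PRPS1 and −0.125 to 0.013 for PRPS2. The causes were not tested. The replicate block gave 3529 called genes in place of 3370, with TKT at an adjusted p of 0.0380, and it changed no call of the members. Deviations of same-numbered libraries correlated at −0.00, 0.08 and −0.01 over 11546 genes, which shows no clear pairing by number. With 3 libraries per group a pairing could be missed. Of the control libraries, replicate 2 alone correlated best with its own number. Dropping the filter left the tested genes unchanged, so that alternative repeats the main fit. The alternatives for genes that are not members were chosen after seeing the data.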

Other observations

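Other genes that use products of the pathway moved as follows. Of 16 measured enzymes of de novo purine and pyrimidine synthesis, which build on phosphoribosyl pyrophosphate, 3 rose and 0 fell. Over all genes 10.2% rose and 9.48% fell. The median log2 fold change of the 16 was 0.02. PAICS, a purine synthesis enzyme, rose from 208 to 229 CPM (0.14 ± 0.04 SE, edgeR adjusted p = 0.0116), CTPS1, a CTP synthase, from 124 to 137 CPM (0.15 ± 0.05, adjusted p = 0.0203) and GMPS, the GMP synthase, from 111 to 122 CPM (0.14 ± 0.05, adjusted p = 0.0258). With total-count scaling 0 of the 16 were called. PAICS was called in 14, CTPS1 in 13 and GMPS in 12 of 17 alternatives.

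Of 15 measured NADPH-using enzymes 7 rose and 1 fell, against 10.2% and 9.48% of all genes, with a median of 0.08. The sterol synthesis enzymes DHCR7 (0.55 ± 0.04 SE) and SQLE (0.48 ± 0.05) rose, and each was called in 17 of 17 alternatives. The list was made with the rise of sterol synthesis in these libraries already known, so its count is not independent of it. Glutathione reductase, GSR, at −0.05 (adjusted p = 0.636), and thioredoxin reductase, TXNRD1, at −0.11 (adjusted p = 0.0578), did not pass, although TXNRD1 passed in 6 of 17 alternatives (adjusted p from 0.00763 to 0.238 over all 17). These reductases were named after their values were seen.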
